A study of Mus musculus with 8 samples.

Results

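The probes described here are the oligonucleotides of a mouse expression array that hold the sequence a transcript needs to pair with the seed of miR-205-5p. A probe was taken where its 60-base sequence, as written in the array files, held the exact 7-base DNA reverse complement of positions 2 to 8 of the mature microRNA, ATGAAGG. Of 42006 non-control probes, 280 held it, and 189 of these (67.5%) passed a filter that asked both arrays of at least 1 of the 4 sample groups to lie well above background in Cy3, the footpad dye. The same filter kept 29199 of all probes (69.5%), so the seed-match probes made up 0.647% of the probes analysed and were compared with the 29010 others. The remaining 91 seed-match probes passed in no group and were not tested. The rule used no measured difference between groups, though it was set with earlier results of these data known.

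The arrays measured RNA from the skin of embryonic mouse footpads, where eccrine sweat glands form. Embryos of the C57BL6 strain background carried a conditional knockout of Dicer (Dicer cKO, here KO) or were wild type (WT). They were collected at E16.5 or a day later at E17.5, where E stands for embryonic day, which gave 4 groups: KO at E16.5, WT at E16.5, KO at E17.5 and WT at E17.5. Each group had 2 arrays, labelled as biological replicates, each of total RNA pooled from 3 to 5 embryos. The Cre driver and the cells that lost Dicer are not given in the sources used here. All 8 arrays set footpad RNA in Cy3 against a common reference, Universal Mouse Reference RNA in Cy5, and the dyes were never swapped. Values are log2 ratios of footpad over reference signal (M), where 0 means equal signal in both. Differences are KO minus WT on the log2 scale unless a stage difference is named, with the standard error (SE) of the fit and p-values from limma, adjusted by the Benjamini-Hochberg method over all probes tested. A probe is called where its adjusted p is under 0.05.

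Dicer cuts precursor hairpins into mature microRNAs, which guide a silencing complex to transcripts that pair with the microRNA's seed, most often in the 3' untranslated region. Pairing of this kind lowers the level or translation of the transcript, and an A across from the microRNA's first base strengthens it. miR-205 is among the most abundant microRNAs of stratified epithelia, the skin included, and is made by progenitor cells of the epidermis and its appendages. A probe on the array reports the level of the transcript it was designed for, and a seed match inside the probe is a match inside that transcript. The rest of each transcript was not searched. The other probes may therefore include those of transcripts with a match outside the probe, and are not a set without the match.

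The mature microRNA (RefSeq, GRCm38.p6, chr1:193507503-193507524, minus strand) is shown first, 5' to 3', with its seed in capitals. It is followed by the 30-base stretch around the match, with the match in capitals, for the called probes with the largest differences at each stage, the other probes called at E16.5, and, last, both probes with the longest run complementary to the microRNA.
mmu-miR-205-5p: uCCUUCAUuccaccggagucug
Z00047905-1: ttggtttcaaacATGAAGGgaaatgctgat
Z00034904-1: cactacagagtcATGAAGGaatgtggtctg
Z00012335-1: agcaaacgatacATGAAGGtctataaagaa
Z00020944-1: taATGAAGGatgtataattgatgccaaata
Z00047318-1: acttgttggtagctATGAAGGagaacgcta
Z00045240-1: gggaaggacATGAAGGagagagccctgatt
Z00024243-1: ccttctccaagtATGAAGGaggagtagaaa
Z00056839-1: ATGAAGGttcctgatgatccggagcactta
Z00043843-1: tacttaATGAAGGcagataggctgctcctg
Z00056221-1: cttcagcatgccaggggacaATGAAGGctt
Z00062224-1: taaggcgttggaATGAAGGcaatggtggtg
Z00022637-1: agttatggaATGAAGGcatggctcccccac

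The files' name columns repeat the probe ID, and 0 of the probe IDs were among the 49997 genes of the reference table, so the probes are given by ID and sequence and no gene is named. Whether a match lies in coding sequence or in an untranslated region was not analysed here, and neither were Dicer1, markers of cell types or mature microRNA levels. The polyadenylation signal AATAAA was searched in both orientations over all 42006 probes. It stood as written in 6.93% of them and as its reverse complement in 3.36%, so probe sequences were read in the sense of the transcript. The reverse complement of the seed match was held by 254 probes, close in number to the 280 with the match itself.

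Each of the 189 probes held the match at 1 place. It began between probe positions 1 and 54, with a median of 26. Their GC content ran from 23.3 to 80.0% with a median of 45.0%, which is also the median of the other probes. In 64 probes the match was followed by an A, the 8-base site, as in Z00034904-1, Z00020944-1, Z00047318-1, Z00045240-1 and Z00024243-1 of the stretches shown. In the other 125 it was not. Counted outward from the seed match, the run complementary to the microRNA was 7 bases long in 90 probes, 8 in 76, 9 in 17, 10 in 4 and 11 in 2. The probes with runs of 11 were Z00062224-1 and Z00022637-1. AATAAA was found in 13 seed-match probes (6.88%) against 7.85% of other probes weighted to the same GC content. The match itself contains TGA, so 1 reading frame of each probe always holds a stop, and 43 probes held a stop in all 3 frames. Of seed matches of other microRNAs, 1 of the 189 probes also held that of let-7, 1 that of the miR-200 family and 0 that of miR-203. These matches were uncommon over all 29199 probes that passed too, where 115 held that of let-7 and 197 that of miR-203.

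Between 168 and 189 of the 189 probes were well above background on each array. The lowest numbers, 168 and 171, were on the KO arrays at E17.5, where the share over all probes was also lowest (62.0 and 65.1%, against 66.5 to 72.0% on the other 6 arrays). Replicate arrays correlated at 0.995 to 0.996 over probes, and arrays of different genotype at 1 stage at 0.984 to 0.993. Each stage lay on a slide of its own, and KO and WT arrays lay at different positions of each slide. Stage and slide therefore cannot be told apart, and neither can genotype and array position. Since the RNA came from whole footpad skin, fewer cells of a type and less RNA per cell cannot be told apart either.

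The seed-match probes covered a wide range of ratios of footpad to reference signal. Their M ran from -4.27 to 5.52 over the 8 arrays. In WT footpads 33 probes had a mean M above 1, that is more than 2-fold over the reference, 24 had a mean M below -1, and 132 lay between. The median M of the seed-match probes lay between -0.0086 and 0.066 on the 8 arrays, and that of GC-matched other probes between 0.054 and 0.066. The lower quartiles of the seed-match probes were near -0.58 to -0.48 and the upper quartiles near 0.43 to 0.55. The spread between replicates was small: the median SD of the 2 arrays of a group was 0.050 log2 units for seed-match probes and 0.046 for the others. The median SE of a KO minus WT difference was 0.065 at E16.5 and 0.064 at E17.5.

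Loss of Dicer would remove mature miR-205 along with other microRNAs, so the question was whether probes with the match stood higher in KO than in WT footpads. As a set they shifted by 0.0185 log2 units or less at either stage, with KO and WT arrays overlapping at E16.5 and not at E17.5. For 183 seed-match probes with a value on all 8 arrays, the median was compared with the GC-weighted median of 28151 others on each array, after each probe was centred on its mean over arrays. At E16.5 the seed-match median stood at -0.0033 and -0.0078 relative to the others on the KO arrays and at -0.0034 and -0.00027 on the WT arrays. The ranges of the genotypes overlapped, and the KO minus WT difference of -0.0038 compared with a replicate SD of 0.0027. It turned positive without WT E16.5 replicate 1 (0.0021), without the filter on dim probes (0.012), and for probes well above background in each dye on every array (0.0026). At E17.5 the relative medians were 0.0213 and 0.0024 on the KO arrays and -0.0124 and -0.00085 on the WT arrays. Both KO arrays lay above both WT arrays at E17.5, with a difference of 0.0185 log2 units against a replicate SD of 0.0111. Over both stages the difference was 0.0073 with a replicate SD of 0.0081, and -0.0019 with the Cy3 signal alone. With 2 arrays a group no exact test of a single value at 1 stage can pass 0.05, and none is given. The E17.5 difference turned to -0.0014 with the Cy3 signal alone and ranged from 0.0083 to 0.0305 as each array was left out in turn.

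At E16.5, 8 of the 187 testable seed-match probes were called (4.28%), where 2.95% of all probes tested were called and 2.97% of GC-matched others. Of the 8, 5 rose in KO (1.09% of all probes tested rose) and 3 fell (1.86%). The called rises measured 1.19- to 2.16-fold with a median of 1.39-fold, and the falls 1.29- to 1.69-fold. The median difference over the 187 probes was -0.0025, against 0.014 for GC-matched others, with quartiles at -0.080 and 0.096. There were 93 of 187 above 0 (49.7%, against 55.0% of GC-matched others). Most differences were small: 177 of 187 were within 1.25-fold of equal (94.7%, against 97.2% of GC-matched others) and 3 exceeded 1.5-fold. These 8 calls depended on the processing. None was called with the scanner's processed signals, with the deposited value table, or with the background fitted on all spots, although all 8 kept their sign in each. With 10 in place of 50 as the added offset, 1 was called. Leaving out WT E16.5 replicate 2 left 1 of the 8 called, leaving out KO E16.5 replicate 1 or 2 left 3 and 2, leaving out WT E16.5 replicate 1 left 4, and leaving out any E17.5 array left 5. With array medians centred in place of the intensity-dependent loess, 2 rises and 5 falls were called.

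Z00047905-1 showed the largest difference of all seed-match probes at E16.5 and was higher in KO at E17.5 too. Its M at E16.5 was 3.12 and 2.32 in KO and 1.48 and 1.74 in WT. Both KO arrays were higher although they lay far apart. The ratio to the reference rose 2.16-fold in KO (log2 difference 1.11, SE 0.22, adjusted p = 0.038 by limma). The reference signal was dim and lower in KO (mean Cy5 5.566 in KO and 5.758 in WT on the log2 scale, offset included), so the ratio depends on the added offset. The mean Cy3 signal of the probe was 8.286 in KO and 7.367 in WT. At E17.5 its M was 0.98 and 1.30 in KO and 0.24 and 0.17 in WT. The groups did not overlap, and WT was not well above background on either array. The level in KO was therefore at least 1.73-fold higher (mean Cy3 signal 6.95 in KO and 6.05 in WT on the log2 scale), a bound taken from the dimmest signal above background on the WT arrays and open to dye bias. The adjusted p was 0.0262 by limma, and the fitted difference of 0.93 became 3.73 with the processed signals. Its E16.5 call was lost when KO replicate 1, WT replicate 1, WT replicate 2 or any E17.5 array was left out (adjusted p 0.0508 to 0.146), and its E17.5 call when any E17.5 array was left out (0.0538 to 0.131). In a fit over both stages the difference was 1.02 (SE 0.15, adjusted p = 0.00294).

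Z00034904-1, an 8-base site, had an M of 3.66 and 3.75 in KO and 2.96 and 3.22 in WT at E16.5. All KO values were above all WT values, and it rose 1.53-fold (log2 0.61, SE 0.10, adjusted p = 0.0192 by limma). At E17.5 it read 3.54 and 3.61 in KO and 3.29 and 3.06 in WT, again without overlap. The rise there was 1.32-fold (log2 0.39, SE 0.10, adjusted p = 0.0321). That E17.5 difference turned to -0.71 (adjusted p = 0.518) with the background fitted on all spots, and its call was lost with the processed signals (adjusted p = 0.078), median centring (0.174) and the offset of 10 (0.0556). It was also lost without KO E17.5 replicate 1, KO E17.5 replicate 2 or WT E17.5 replicate 2 (adjusted p 0.0865 to 0.14). At E16.5 the call was lost without KO replicate 1, KO replicate 2 or WT replicate 1 (0.0626 to 0.146).

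Z00012335-1 and Z00020944-1 rose at both stages, with the smallest SEs of the fit (0.087 and 0.056) among the 4 probes called at each stage. Z00012335-1 read 2.42 and 2.15 in KO and 1.82 and 1.80 in WT at E16.5, and 2.46 and 2.34 in KO and 1.74 and 1.79 in WT at E17.5. It stood above every WT array at each stage, and rose 1.40-fold at E16.5 (adjusted p = 0.0284 by limma) and 1.56-fold at E17.5 (log2 0.64, SE 0.09, adjusted p = 0.00287). Z00020944-1, an 8-base site within a run of 9 complementary bases, read 1.46 and 1.57 in KO and 1.09 and 1.07 in WT at E16.5. At E17.5 it read 1.46 on both KO arrays and 0.98 and 0.92 on the WT arrays. Its level was thus nearly the same in the KO at both stages and lower in each WT group, with a rise of 1.35-fold at E16.5 (adjusted p = 0.00796 by limma) and 1.42-fold at E17.5 (log2 0.51, SE 0.06, adjusted p = 0.00109). At E17.5 both probes remained called when any array was left out, with the processed signals and with median centring, and lost the call with the background fitted on all spots (adjusted p = 0.722 for Z00012335-1 and 0.263 for Z00020944-1). At E16.5 Z00012335-1 lost its call without KO replicate 1, WT replicate 1 or WT replicate 2 (0.0737 to 0.152) and Z00020944-1 without KO replicate 2 or WT replicate 2 (0.0649 and 0.0658).

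The remaining rise at E16.5 was small. Z00047318-1, an 8-base site with a footpad signal below that of the reference, read -1.43 and -1.35 in KO and -1.63 and -1.65 in WT. It rose 1.19-fold (log2 0.25, SE 0.05, adjusted p = 0.0477 by limma), a call that was lost when any array was left out (0.0608 to 0.244). At E17.5 its difference was 0.16 (adjusted p = 0.0848).

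Of the 3 falls at E16.5, those of Z00045240-1 and Z00024243-1 were at 8-base sites. Z00045240-1 read 2.31 and 1.93 in KO and 2.81 and 2.94 in WT. Both KO arrays were lower, a fall of 1.69-fold (log2 -0.76, SE 0.12, adjusted p = 0.015 by limma). At E17.5 it read 3.57 and 3.40 in KO and 3.60 and 3.68 in WT, a difference of -0.15 (adjusted p = 0.424). Z00024243-1 had the highest ratio to the reference of the set, with 5.05 and 4.85 in KO and 5.27 and 5.52 in WT at E16.5. Its reference signal was dim (mean Cy5 6.135 in KO and 6.472 in WT on the log2 scale, offset included), so the ratio depends on the added offset. It fell 1.37-fold (log2 -0.45, SE 0.09, adjusted p = 0.0446 by limma), but the difference was -0.07 (adjusted p = 0.555) with the processed signals. Z00056839-1 read 1.21 and 1.10 in KO and 1.48 and 1.57 in WT, a fall of 1.29-fold (log2 -0.37, SE 0.06, adjusted p = 0.0205 by limma). Calls were lost without KO E16.5 replicate 2 or WT E16.5 replicate 2 for Z00045240-1 (adjusted p 0.0648 and 0.0977) and Z00056839-1 (0.143 and 0.154), and without any array but WT E16.5 replicate 1 for Z00024243-1 (0.0616 to 0.237).

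At E17.5, 25 of 187 seed-match probes were called (13.4%), where 14.8% of all probes tested were called and 15.1% of GC-matched others. The share lay near the background, with 14 rises and 11 falls (6.97 and 7.83% of all probes tested rose and fell). Of the rises, 13 measured 1.16- to 1.56-fold, and that of Z00047905-1 is known only as a bound because WT was not well above background. The falls measured 1.13- to 1.80-fold, with a median of 1.25-fold. The median difference of the 187 probes was 0.019 against 0.0053 for GC-matched others, with quartiles at -0.067 and 0.10. There were 104 above 0 (55.6%, against 51.4%), 173 within 1.25-fold of equal (92.5%, against 92.8%) and 5 beyond 1.5-fold. Of the 25 calls, 22 had the same sign at E16.5, and the matching share of all called probes was not counted. The count fell to 8 without KO replicate 1, 9 without KO replicate 2, 10 without WT replicate 1 and 13 without WT replicate 2 of this stage, to 0 with the background fitted on all spots, and to 12 (9 rises and 3 falls) with the processed signals. It was 8 (3 rises and 5 falls) with median centring and 18 (12 rises and 6 falls) with the offset of 10. Median centring moved the median of all probes by -0.053 at E17.5 and -0.087 at E16.5.

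The largest falls at E17.5 were those of Z00043843-1 and Z00056221-1. Z00043843-1 read 2.77 and 2.68 in KO and 3.70 and 3.44 in WT at E17.5. Its KO arrays were lower by 1.80-fold (log2 -0.84, SE 0.18, adjusted p = 0.0158 by limma), a call lost without KO replicate 1, KO replicate 2 or WT replicate 1 of E17.5 (0.0571 to 0.109) and with the processed signals (log2 -0.56, adjusted p = 0.176). At E16.5 it read 1.88 and 1.66 in KO and 1.71 and 2.32 in WT, where the groups overlapped (adjusted p = 0.478). Z00056221-1 read 1.03 and 1.13 in KO and 1.79 and 1.69 in WT at E17.5. It fell 1.59-fold (log2 -0.67, SE 0.07, adjusted p = 0.00101 by limma) and remained called when any array was left out, but its difference was -0.01 (adjusted p = 0.968) with the processed signals, and with median centring it was -0.34 (adjusted p = 0.0528). At E16.5 it read 0.51 and 0.39 in KO and 0.57 and 0.70 in WT (difference -0.19, adjusted p = 0.196).

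The next largest falls and rises at E17.5 were picked out after their values were seen, and Z00003759-1, Z00003696-1 and Z00029236-1 lost their calls with the processed signals (adjusted p = 0.0937, 0.0571 and 0.121). Z00003759-1 read 1.07 and 1.16 in KO and 1.70 and 1.74 in WT at E17.5. Its groups stood well apart, a fall of 1.52-fold (log2 -0.60, SE 0.10, adjusted p = 0.00529 by limma), whereas at E16.5 it read 0.21 and 0.18 in KO and -0.09 and 0.24 in WT and the groups overlapped (adjusted p = 0.532). Z00003696-1 read -0.48 and -0.55 in KO and -0.08 and -0.13 in WT at E17.5, a fall of 1.33-fold (adjusted p = 0.0105 by limma). Both KO arrays were lower than both WT arrays at E16.5 too, at -1.20 and -1.41 against -1.17 and -1.06, where the adjusted p was 0.215. Without KO E17.5 replicate 2 or WT E17.5 replicate 1 its E17.5 call was lost (0.0647 and 0.0719). Z00002917-1, an 8-base site, read -0.67 on both KO arrays and -0.23 and -0.34 in WT at E17.5 and was the only 8-base site called lower there (log2 -0.39, SE 0.06, adjusted p = 0.00362 by limma). Among the rises, Z00029236-1 read 2.68 and 2.92 in KO and 2.47 and 2.21 in WT at E17.5, a 1.37-fold rise (adjusted p = 0.0209 by limma) that was not called without KO replicate 2 or WT replicate 2 of E17.5 (0.114 and 0.0926). Its difference was -0.66 (adjusted p = 0.518) with the background fitted on all spots. Z00076849-1, an 8-base site in the probe of lowest GC content among the seed-match probes (23.3%), read 2.53 and 2.50 in KO and 2.14 and 2.18 in WT. It rose 1.28-fold (log2 0.36, SE 0.05, adjusted p = 0.00323 by limma), remained called as each array was left out, was not called with median centring (0.23, adjusted p = 0.231), and turned to -0.059 (adjusted p = 0.898) with the background fitted on all spots.

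When the genotypes were compared over both stages in 1 fit, 37 of 188 seed-match probes were called (19.7%), against 15.7% of all probes tested and 15.9% of GC-matched others. Of these, 21 rose (7.79% of all probes tested rose) and 16 fell (1.11- to 1.46-fold, where 7.9% of all probes tested fell). All 37 had the same sign at both stages, which a call on 1 effect shared by the stages favours in advance. There were 19 also called at E17.5 and 15 called at neither stage alone. The smallest adjusted p-values by limma were those of Z00020944-1 (log2 0.47, adjusted p = 0.000253), Z00012335-1 (0.56, adjusted p = 0.00089), Z00047905-1 and Z00034904-1 (0.50, adjusted p = 0.00318), the 4 probes called at each stage, all of them higher in KO. The matching shares of all probes, for calls at each stage, at E17.5 as well or at neither stage, were not counted. Whether 19, 15 and 4 differ from the background is therefore not known. The median difference of the 188 was 0.0052 against 0.010 for GC-matched others. Counting every comparison of genotypes, 44 of the 189 probes were called in at least 1 (23.3%, against 20.8% of all probes) and 145 in none. The count over both stages was 26 with median centring (4 rises and 22 falls), 27 with the processed signals (14 and 13) and 0 with the background fitted on all spots. The count was below 37 when any 1 of the 8 arrays was left out, and lowest without KO E17.5 replicate 2.

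The genotype difference was also compared between the stages. By limma's interaction term, 0 of 186 seed-match probes were called, where 0.308% of all probes tested were called, and 17 of the 186 had an unadjusted p under 0.05 (9.14%, against 12.1% of all probes tested). The median of the difference was 0.0067 for seed-match probes and -0.011 for GC-matched others. Z00003759-1 had the smallest adjusted p of 0.0835 (log2 -0.72) and was called without WT E16.5 replicate 2 (-0.89, adjusted p = 0.0103). Z00056221-1 (-0.48, adjusted p = 0.122) was called with the Cy3 signal alone (-0.46, adjusted p = 0.0234). Across the 186 probes the differences at E16.5 and E17.5 correlated at r = 0.596, and across other probes at 0.562; probes are not independent replicates, and no test was made.

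Levels were also compared between the stages within each genotype. In WT, 45 of 188 seed-match probes were called (23.9%, where 24.7% of all probes tested were called), 25 higher and 20 lower at E17.5 (13 and 11.7% of all probes tested). In KO, 50 of 186 were called, where 28.1% of all probes tested were called, 30 higher and 20 lower (13.4 and 14.8%). In both genotypes 33 of 189 were called, where 16.6% of all probes were, 18 higher and 15 lower at E17.5. The WT count fell to 28 and 25 without WT E16.5 replicates 1 and 2 and to 26 without WT E17.5 replicate 2, and the KO count to 21 without KO E16.5 replicate 2 and 24 without KO E17.5 replicate 1. With median centring the counts were 21 in WT and 20 in KO. Z00003759-1 rose 3.14-fold between the stages in WT and 1.90-fold in KO (adjusted p = 1.38e-05 and 0.000353 by limma). Z00043843-1 rose 2.94- and 1.94-fold, and Z00056221-1 2.15- and 1.54-fold. These 3 probes are the largest falls in KO at E17.5, a comparison that shares the WT E17.5 arrays with the stage change in WT. Z00045240-1 rose 1.69-fold in WT and 2.57-fold in KO (adjusted p = 0.00187 and 0.00015). Z00058131-1, the seed-match probe of highest GC content (80.0%), rose from 2.47 and 2.61 to 3.30 and 3.39 in WT and from 2.30 and 2.03 to 3.19 and 3.06 in KO (1.75- and 1.94-fold, adjusted p = 0.000464 and 0.000279 by limma). In the other direction Z00047905-1 fell 2.99-fold in KO (adjusted p = 0.00146 by limma), and its WT arrays were not well above background at E17.5. Z00039527-1 fell 1.51-fold in WT and 1.58-fold in KO (adjusted p = 0.00312 and 0.00208). With the processed signals the KO fall of Z00047905-1 was not called (adjusted p = 0.057), and with the background fitted on all spots none of these stage changes was (0.0582 to 0.977).

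The seed-match probes were then split by what follows the match. Of the 8-base sites, 5 of 62 were called at E16.5 (3 rises and 2 falls, 8.06%) and 6 of 63 at E17.5 (5 rises and 1 fall, 9.52%), against 3.11 and 15.6% of GC-matched others. Their median difference was -0.011 at E16.5 and 0.042 at E17.5, against 0.017 and 0.0077 for GC-matched others. Of matches not followed by A, 3 of 125 were called at E16.5 (2.4%, against 2.91% of GC-matched others). At E17.5, 19 of 124 were called (9 rises and 10 falls, 15.3%, against 14.8%). The medians of these matches were 0.0080 and 0.0057, against 0.012 and 0.0041. The difference between both classes was not tested. Over both stages 13 of 63 8-base sites (8 rises and 5 falls) were called (20.6%, against 16.4% of GC-matched others), and 24 of 125 other matches (19.2%, against 15.6%).

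Of the 23 probes with a run of 9 or more complementary bases, 1 of 21 tested was called at E16.5 (4.76%, against 3.05% of GC-matched others). At E17.5, 1 of 22 was called (4.55%, against 15.5%), in each case Z00020944-1. The medians of these probes were -0.022 and 0.0078, against 0.016 and 0.0072. Over both stages 2 of 22 were called (9.09%, against 16.2%), 1 higher and 1 lower. Z00022637-1, with a run of 11, read 3.11 and 3.07 in KO and 2.95 and 2.97 in WT at E16.5, and 3.26 and 3.24 in KO and 3.07 and 3.20 in WT at E17.5. Its KO values lay above its WT values at each stage by 0.13 and 0.12, and neither passed the test (adjusted p = 0.259 and 0.208 by limma). Z00062224-1, the other probe with a run of 11, differed by -0.08 and -0.03 (adjusted p = 0.532 and 0.77) and was not well above background in either group at E17.5. Of the 43 probes with a stop in all 3 frames, 2 were called at E16.5, both higher (4.65%, against 3.12% of GC-matched others), and 7 at E17.5, 4 higher and 3 lower (16.3%, against 15.8%). Their medians were 0.044 and 0.023, against 0.023 and 0.010.

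Probes with the seed match of 2 other microRNAs gave a scale for these counts. miR-203 is an abundant microRNA of differentiating epidermis and let-7 is found in most tissues. Of 197 miR-203 seed-match probes 38 were called at E17.5, 27 higher and 11 lower, with a median of 0.051 against 0.011 for their GC-matched others (19.3% called, against 15.7%). Of 115 let-7 seed-match probes 26 were called, 21 higher and 5 lower, with a median of 0.014 against 0.00087 (22.6% called, against 14.2%). The miR-205 set had 14 higher and 11 lower of 187 and a median of 0.019 against 0.0053. At E16.5 the miR-203 set had 4 rises and 2 falls of 196 (median 0.042 against 0.024, 3.06% called against 3.10%). The let-7 set had 7 rises and 1 fall of 115 (0.033 against 0.0066, 6.96% against 2.78%). The miR-205 set had 5 rises and 3 falls, with a median of -0.0025 against 0.014. These sets share all arrays, and the differences between them were not tested. Probes with the miR-205 match in the opposite orientation had 0 rises and 3 falls of 158 at E16.5 (1.9% called, against 3.04%). At E17.5 they had 9 rises and 13 falls of 157 (14.0%, against 15.0%), with a median of -0.0034 against 0.0033.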

How the data were processed

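The deposited files are scanner output of 2-colour Agilent arrays, 43451 spots each, made by the authors with Agilent Feature Extraction 9.5.1.1 per the file headers. Spot values are fluorescence intensity on a linear scale per the file headers. The authors' deposited value table holds log10 values per the comparison with the scanner files: over 24641 rows it differed by at most 0.00016 from the log10 processed ratio plus the mean log10 Cy5 signal, and its column medians were 2.23 to 2.24. The direction is footpad over reference per the labels.

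From the mean and median background signals, normexp (offset 50, which shrinks the ratios of dim spots) was fitted per array and channel without spots the scanner marked as non-uniform. Several probes described singly were dim in the reference. Their mean log2 Cy5 levels at E16.5 in KO and WT, offset included, were 5.566 and 5.758 for Z00047905-1, 6.262 and 6.335 for Z00034904-1, 6.174 and 6.195 for Z00043843-1, 6.084 and 6.105 for Z00056221-1 and 5.745 and 5.802 for Z00029236-1. Those of Z00012335-1 (8.546 and 8.519) and Z00020944-1 (10.34 and 10.36) were higher. A fit on all spots gave Cy3 background means of -7.00 for WT E16.5 replicate 1 and -320.75 for KO E17.5 replicate 2, while the fit used gave 4.81 to 9.14. Loess followed within each array, control spots had weight 0, flagged outlier spots were dropped, and repeated spots were averaged. The filter on dim probes is the one the report gives. All 8 arrays were fitted together with limma 3.58.1 in R 4.3.3, with the 4 group means and no covariates. The fit over both stages had terms for stage (the same as slide) and genotype. In each, p-values were adjusted by Benjamini-Hochberg over all probes tested. In tests on simulated data over 28334 probes, changes of 1.25-, 1.5- and 2-fold were recovered in 39.6, 81.2 and 96% of cases at E16.5 and in 40, 80.4 and 96% at E17.5, and 4.47% of the calls at each stage were false. Each of 5 runs changed 200 probes by the same amount at both stages, with independent normal noise. These rates need not hold for the real data, where more probes were called. GC-matched medians and shares weight the other probes so that their GC counts are distributed as in the seed-match probes.

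Probes shown are the 2 largest called rises and falls at each stage without overlap of KO and WT arrays. The rest of the E16.5 calls and the additional probes at E17.5, over both stages and between stages were chosen after their values were seen, and the runs of 11 bases by sequence. Members, lists, the background fit and tests were chosen with earlier results of these data known. Probes could not be matched to proteins, so the planned gene lists were not analysed here.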

Additional observations from a re-analysis of the deposited data

How the results depend on the processing

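Members called at E16.5, E17.5 and over both stages numbered 8, 25 and 37. With the background fitted on all spots they were 0, 0 and 0 (2 and 1 for the stage change in WT and KO, from 45 and 50). At an adjusted p of 0.01 they were 1, 6 and 7 (23 and 21 for the stage change). Processed signals and the deposited value table each gave 0 and 12 at E16.5 and E17.5, the offset of 10 gave 1 at E16.5, the E16.5 arrays alone gave 3, and median centring gave 8 at E17.5 and 21 and 20 for the stage change. With the replicate number as a block the counts were 4, 16 and 21. Same-numbered arrays' deviations correlated at -0.22 at E16.5 and -0.01 at E17.5, so neither value was positive. Whether KO and WT arrays of a stage share more than a number was not tested. Crossing the numbers at E16.5, an alternative added after seeing the data, gave 9 there and 27 over both stages. Leaving out each array gave 1 to 6 at E16.5, 8 to 23 at E17.5, 18 to 33 over both stages, 0 to 1 for the difference between stages, 25 to 44 for the WT stage change and 21 to 50 in KO. The Cy3 signal alone gave 1 for the difference between stages. The median shift against GC-matched probes moved at E16.5 to 0.012 without the filter, 0.0026 for probes that every array measured above background in each dye, -0.0071 for 8-base sites and 0.018 for probes with a stop in all frames (added after seeing the data), and at E17.5 to 0.031 with the background on all spots, 0.034 with median centring, -0.0014 with Cy3 alone, 0.030 for probes above background in each dye and 0.0041 for matches to positions 2 to 7. Over both stages it moved to 0.016 with median centring, -0.0019 with Cy3 alone, 0.016 for probes above background in each dye and 0.019 with stops in all frames. As each array was left out it ran from -0.0068 to 0.0021, 0.0083 to 0.0305 and 0.0039 to 0.0165. For the probes described singly, 1207 alternative values other than left-out arrays kept their side of the threshold, 152 lost the call and 17 gained it. In 6 a called difference reversed its sign, all with the background fitted on all spots: at E17.5 Z00034904-1 (-0.71), Z00076849-1 (-0.059) and Z00029236-1 (-0.66), and with stage in KO Z00043843-1 (-0.033), Z00076849-1 (-0.13) and Z00056839-1 (-0.029). Changes of sign in differences not called are counted among the 1207. An example is Z00022637-1 at E16.5, where 0.126 went as low as -0.033. The cause was not tested. The planned restriction to probes outside coding sequence was not run. With 2 arrays a group, 1.25-fold changes were called in 39.6 and 40% of simulated cases at E16.5 and E17.5, where 200 of 28334 probes were changed.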
